A study of Drosophila melanogaster with 2 samples.

Results

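In single-cell RNA sequencing of dissociated adult *Drosophila* intestines, 741 of 10564 barcodes were chosen by 6 genes, *CG32483*, *CG10799*, *CG42700*, *CG3344*, *CG6283*, and *CG8560*. A barcode was a member when it had at least 200 genes, at most 25% of its UMIs from the mitochondrial genome, fewer than 3 UMIs of the progenitor genes *esg*, *N*, and *Dl* together, fewer than 3 UMIs of the enteroendocrine gene *pros*, and at least 3 UMIs of the 6 genes at a share of its UMIs at least 3 times the share pooled over all barcodes within the gene and mitochondrial limits. A UMI is a molecular identifier that marks 1 captured transcript. The rule found 248 members in esg[ts]>ImdD30A intestines and 493 in esg[ts] intestines. The esg[ts]>ImdD30A flies (w; esgGal4, tubGAL80[ts], UASGFP/+; UAS-ImdD30A/+) carried a GAL4 driven by *esg*, a temperature-sensitive GAL80, a GFP reporter, and a dominant inhibitory form of the adaptor *imd*. The esg[ts] controls (w; esgGal4, tubGAL80[ts], UASGFP/+; +/+) carried the same driver, repressor, and reporter without the *imd* transgene. The driver is active in intestinal stem cells and their progenitors, so the transgene was not aimed at enterocytes, and the members are differentiated cells in an epithelium whose progenitors carried the inhibitor. Each genotype was 1 library, for which 27 guts were pooled from virgin females held at 29 °C for 10 days, and no test between genotypes was possible. A difference between genotypes cannot be told apart from a difference between the libraries.

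Enterocytes are the absorptive cells of the fly midgut. They secrete serine proteases, carboxypeptidases, amylases, and lipases into the lumen, and the genes they use change along the length of the gut. Parts of the midgut store metals, where metallothioneins bind copper and zinc, and ferritin holds iron. Secreted PGRP amidases cut bacterial peptidoglycan before it reaches the receptors of the IMD pathway. Of the 6 genes, *CG32483* and *CG3344* encode members of the serine carboxypeptidase family, *CG8560* a zinc carboxypeptidase, and *CG6283* a member of the pancreatic-type lipase family.

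On BDGP6.54, *CG32483* (chromosome 3L, 688523 to 690081, minus strand, 4 exons) and *CG3344* (chromosome 3L, 685942 to 687958, minus strand, 4 exons) are neighbours. *CG8560* (chromosome 3L, 7402332 to 7404181, minus strand, 4 exons) lies near *CG8562* (chromosome 3L, 7398285 to 7399912, plus strand, 3 exons), which also encodes a zinc carboxypeptidase. The gene *CG18417* lies between them. *CG6283* (chromosome 3R, 27020238 to 27021378, minus strand, 2 exons) lies beside the lipase gene *CG6277* (chromosome 3R, 27022071 to 27023217, minus strand). *CG10799* (chromosome 2R, 13257886 to 13258477, plus strand) has 1 exon, and *CG42700* (chromosome 2R, 12279771 to 12300795, plus strand) has 15.

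Members were 7.05% (exact Clopper-Pearson 95% interval 6.22 to 7.94) of the 3520 esg[ts]>ImdD30A barcodes within the gene, mitochondrial, progenitor, and *pros* limits, and 14.2% (13.1 to 15.5) of the 3461 such esg[ts] barcodes. Of all barcodes they were 3.92% in esg[ts]>ImdD30A and 11.6% in esg[ts]. All intervals here cover counting error only. The mitochondrial limit removed 31.9% of barcodes in esg[ts]>ImdD30A and 3.39% in esg[ts], and 69 esg[ts]>ImdD30A and 4 esg[ts] barcodes met every limit but that one. Each threshold was crossed by many barcodes. Between 3 and 4 times the pooled share stood 85 of 248 esg[ts]>ImdD30A members and 74 of 493 esg[ts] members. At 10 times or more stood 66 esg[ts]>ImdD30A members (26.6%) and 211 esg[ts] members (42.8%). Just outside, between 2 and 3 times the pooled share with at least 3 UMIs of the 6 genes, were 117 esg[ts]>ImdD30A and 76 esg[ts] barcodes. Exactly 3 UMIs of the 6 genes were held by 32 esg[ts]>ImdD30A and 53 esg[ts] members.

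The depth of members was uneven. Their median was 1069.5 UMIs in esg[ts]>ImdD30A and 1087 in esg[ts], with ranges of 670 to 288042 and 537 to 149806. In esg[ts]>ImdD30A, 172 members had under 2000 UMIs and together held 5.49% of member UMIs, whereas the 49 members with 10000 UMIs or more held 91.2%. In esg[ts], 411 members under 2000 UMIs held 30.2% of member UMIs and 16 members with 10000 UMIs or more held 53.9%. A level summed over members is therefore mostly the level of the few deep ones, and the mean over cells, which counts each cell equally, is given beside it where the values part. Levels are CPM, the counts of a gene scaled to a fixed total of UMIs, taken from 3′ tags, which do not scale with transcript length.

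**Figure D1:**
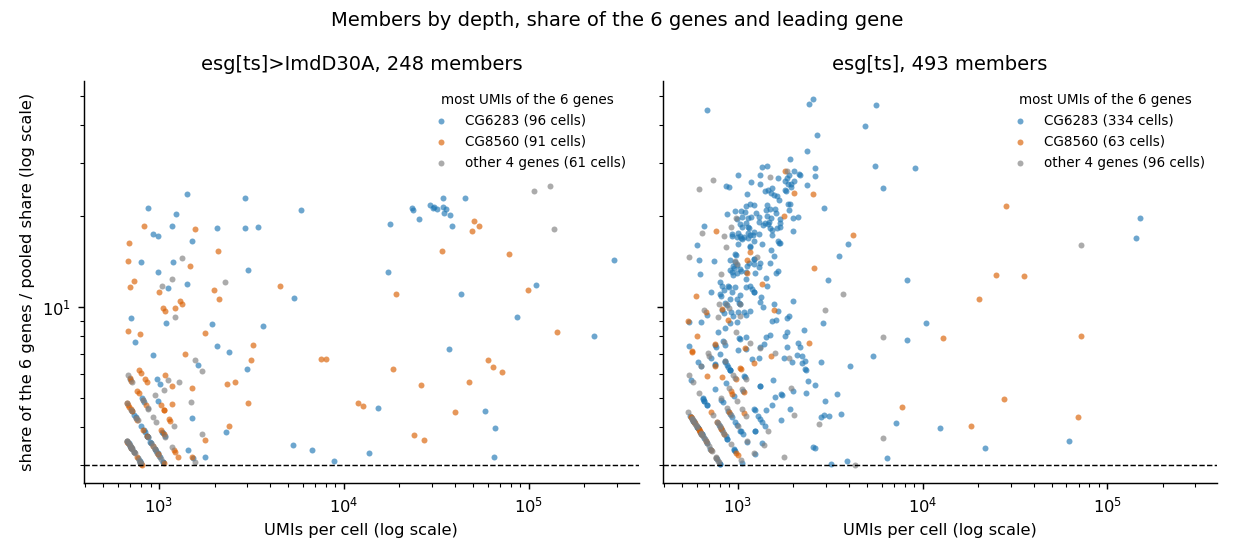
UMIs per member (x axis, log scale) against the share of its UMIs from the 6 genes over the pooled share (y axis, log scale), for esg[ts]>ImdD30A (left, 248 members) and esg[ts] (right, 493 members). Each point is 1 barcode, coloured by the gene of the 6 with most UMIs in it (on a tie, the first listed). The dashed line is the limit of 3 times the pooled share. Barcodes led by CG6283 number 96 in esg[ts]>ImdD30A and 334 in esg[ts], and those led by CG8560 number 91 and 63.

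Some members could not be told from each other by their counts. For each pair of barcodes with 2000 UMIs or more, the counts of all genes outside the 6 with at least 20 UMIs in the pair were compared by chi-square per degree of freedom, which is near 1 when 2 barcodes are draws from the same profile. In esg[ts]>ImdD30A this value was under 2 in 93 of 2850 pairs of members and in 1 of 84740 pairs of a member and another cell, against medians over pairs of 37.2 and 44.5. The pairs joined 14 members of 5886 to 45060 UMIs, all led by *CG6283*, into a group whose median pair was at 1.27 and which held 13.7% of the library's member UMIs, and 3 members of 49314 to 54014 UMIs, all led by *CG8560*, into another. In esg[ts], 184 of 3321 pairs of members and 111 of 64862 pairs of a member and another cell were under 2, with medians over pairs of 14.8 and 27.6. Groups were joined pair by pair, so 2 barcodes of a group need not be under 2 with each other. The largest groups in esg[ts] held 24 and 10 members, with median pairs at 1.92 and 1.77. The larger had 36 barcodes in all, other cells included. Members of these 2 groups had median depths of 2506.5 and 2151.5 UMIs. At such depths fewer genes enter a pair, and cells of 1 kind are harder to tell apart. In esg[ts], no pair with 10000 UMIs or more in both was under 2. Whether barcodes so alike come from 1 cell was not tested. Counting each such group as 1 cell, the deepest kept, left 233 esg[ts]>ImdD30A and 456 esg[ts] members, 6.65% and 13.3% of barcodes within the limits.

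The libraries also shared 132 barcode sequences. Among members, 11 in esg[ts]>ImdD30A and 14 in esg[ts] had such a barcode, and 10 of these sequences were members in both. In 14 of the 15 pairs, 1 library held at least 99593 UMIs and the other at most 1656. Without shared barcodes the share of members differed by −7.43 percentage points (esg[ts]>ImdD30A minus esg[ts]), against −7.20 with them.

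Barcodes of other cell types were used as a reference for free RNA, although they are deeper than most members. Of 594 esg[ts]>ImdD30A and 504 esg[ts] barcodes with at least 3 UMIs of *esg*, *N*, and *Dl*, 6 (1.01%) and 4 (0.794%) met the limits on the 6 genes, at median depths of 19073.5 and 11631 UMIs. Of barcodes with at least 3 UMIs of *pros*, 0 of 215 in esg[ts]>ImdD30A and 1 of 150 in esg[ts] did so, at 10103 and 5628.5 UMIs. The same progenitor barcodes had a UMI of *CG32483* in 8.59% of esg[ts]>ImdD30A and 8.53% of esg[ts] cases and of *CG8560* in 39.2% and 23.0%, so a single UMI of these genes also occurs in cells chosen for other markers. Shallow barcodes held more. In other cells under 2000 UMIs *CG8560* was at 343 CPM in esg[ts]>ImdD30A and 204 CPM in esg[ts], against 94.8 and 64.6 CPM in the progenitor barcodes, and *CG3344* was at 202 and 221 CPM, against 71.6 and 53.7 CPM. The free RNA of shallow members was therefore not measured by the progenitor barcodes. Markers of other cell types were also read in members. *Mhc* of muscle, *Hml* and *NimC1* of hemocytes, *Yp1* and *Yp2* of fat body and ovary, and *Uro* of tubules were at 0 UMIs in the members of both libraries. The muscle list summed to 243 CPM in esg[ts]>ImdD30A members and 281 CPM in esg[ts] members, against 377 and 298 CPM in other cells, with 4 and 5 of its 11 genes at 0. The tubule list summed to 40.3 CPM in esg[ts]>ImdD30A members and 15.2 CPM in esg[ts] members, against 35.8 and 20.1 CPM in other cells. Of its 6 genes, 4 were at 0 in the members of each library. The cardia list, led by *Peritrophin-15a*, summed to 2587 CPM in esg[ts]>ImdD30A members and 2080 CPM in esg[ts] members, against 1592 and 4449 CPM in other cells. Copper cell markers summed to 9394 CPM in esg[ts]>ImdD30A members and 7906 CPM in esg[ts] members, against 10585 and 10996 CPM in other cells. The part of these lists in the results below was not tested. Myosin *Myo31DF* of the enterocyte brush border was at 123 CPM in esg[ts]>ImdD30A and 94.5 CPM in esg[ts] members, against 123 and 84.5 CPM in other cells.

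All 6 genes were far above other cells in both libraries. The rule sets limits on their sum and not on each gene, and their levels are a description. *CG6283* was the most abundant, at 8578 CPM (exact Poisson 95% interval 8475 to 8683) in esg[ts]>ImdD30A members and 7431 CPM (7291 to 7572) in esg[ts] members, against 236 and 229 CPM in other cells. *CG8560* was at 3392 CPM (3328 to 3458) in esg[ts]>ImdD30A and 3218 CPM (3126 to 3311) in esg[ts] members, against 57.7 and 35.2 CPM in other cells. *CG3344* was at 2197 CPM (2145 to 2250) in esg[ts]>ImdD30A and 2819 CPM (2733 to 2907) in esg[ts] members. The rest were lower, with *CG10799* at 894 CPM (861 to 928) in esg[ts]>ImdD30A and 660 CPM (619 to 703) in esg[ts] members. *CG32483* was at 720 CPM (691 to 751) in esg[ts]>ImdD30A and 1299 CPM (1241 to 1359) in esg[ts] members. *CG42700* was the least abundant, at 155 CPM (142 to 170) in esg[ts]>ImdD30A and 161 CPM (141 to 184) in esg[ts] members. The order from *CG6283* through *CG8560* and *CG3344* was the same in both libraries, and *CG32483* and *CG10799* changed places. As a mean over cells, *CG32483* was at 365 CPM in esg[ts]>ImdD30A members and 1354 CPM in esg[ts] members. *CG10799* turned direction between the scales, with a log2 ratio of esg[ts]>ImdD30A over esg[ts] members of 0.44 from summed UMIs and −0.73 from cell means, and so did *CG6283*, at 0.21 and −0.42. A single deep barcode held 42.9% of *CG42700* UMIs in esg[ts]>ImdD30A members and 32.1% in esg[ts] members.

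**Figure D2:**
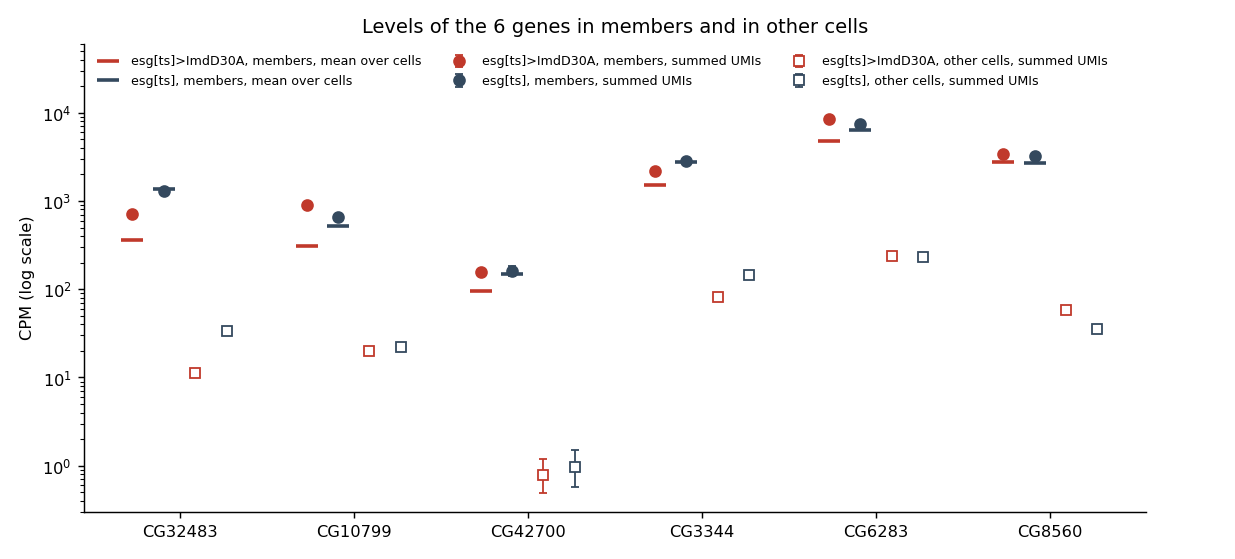
Level of each of the 6 genes in CPM (y axis, log scale) in members and in other cells, esg[ts]>ImdD30A in red and esg[ts] in blue. Filled circles are UMIs summed over members and open squares UMIs summed over other cells, both with exact Poisson 95% intervals, and bars are means over members counted equally. Every gene is higher in members, and the bar of CG32483 stands at 365 CPM in esg[ts]>ImdD30A and at 1354 CPM in esg[ts].

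The genes that give these cells their working name, *CG32483* and *CG10799*, were found together in a minority of members. A UMI of both was held by 38 of 248 esg[ts]>ImdD30A members (15.3%, 11.1 to 20.4) and 167 of 493 esg[ts] members (33.9%, 29.7 to 38.2), and neither was found in 54.0% and 29.2%. A shallow barcode misses most genes, so part of these zeros follows from depth. Among members with 2000 UMIs or more, both genes were found in 28 of 76 in esg[ts]>ImdD30A (36.8%) and 43 of 82 in esg[ts] (52.4%). Among members with 10000 UMIs or more, both genes were found in 20 of 49 esg[ts]>ImdD30A members and 8 of 16 esg[ts] members. At least 4 of the 6 genes were held by 25.4% of esg[ts]>ImdD30A and 58.4% of esg[ts] members. For members under 2000 UMIs these shares were 12.2% and 54.0%, and at 10000 UMIs or more 61.2% and 62.5%. The members are therefore called below by the gene of the 6 with most UMIs in each barcode. *CG6283* led 96 of 248 esg[ts]>ImdD30A members (38.7%) and 334 of 493 esg[ts] members (67.7%), and *CG8560* led 91 (36.7%) and 63 (12.8%). *CG3344* led 46 esg[ts]>ImdD30A and 64 esg[ts] members, *CG32483* 10 and 25, *CG10799* 4 and 4, and *CG42700* 1 and 3. On a tie, the first of the 6 genes in the order named at the start counted as leading. All 10 esg[ts]>ImdD30A and 20 of 25 esg[ts] barcodes led by *CG32483* were ties, as were 17 of 46 and 21 of 64 led by *CG3344*. Ties made up 3 of 96 and 6 of 334 led by *CG6283*, and 0 led by *CG8560*. The split by leading gene was made after the values had been seen.

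Members resembled each other in genes the rule did not use. With the 6 genes left out of the variable genes, a mean of 34.3% of the 30 nearest neighbours of an esg[ts]>ImdD30A member and 62.8% of those of an esg[ts] member were members, where members made up 7.05% and 14.2% of the cells. Among members with 2000 UMIs or more the values were 66.4% in esg[ts]>ImdD30A and 67.5% in esg[ts]. Members under 2000 UMIs had 20.1% and 61.8%, so the shallow esg[ts]>ImdD30A barcodes were the least alike. The leading gene was set against these neighbourhoods. At 2000 UMIs or more, the member neighbours of barcodes led by *CG6283* were themselves led by *CG6283* in 95.1% of cases in esg[ts]>ImdD30A and 78.4% in esg[ts]. *CG6283* led 55.3% and 72.0% of members at that depth, so the esg[ts] value was near its base share. The member neighbours of barcodes led by *CG8560* were led by *CG8560* in 84.4% of cases in esg[ts]>ImdD30A and 57.2% in esg[ts]. *CG8560* led 39.5% and 18.3% of members at that depth. Neighbours are counted over cells of 1 library, and the alike barcodes above are among them.

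Among members with 2000 UMIs or more, barcodes led by *CG8560* held the same digestive genes in both libraries (n = 30 in esg[ts]>ImdD30A, median depth 21649.5 UMIs, and n = 15 in esg[ts], 18227 UMIs). Their median level of the carboxypeptidase *CG8562* was 3946 CPM in esg[ts]>ImdD30A and 775 CPM in esg[ts]. The Jonah protease *Jon25Biii* was at 37002 CPM in esg[ts]>ImdD30A and 46494 CPM in esg[ts], and *Jon99Cii* at 67427 and 84516 CPM. The serine protease gene *CG18180* was at 18310 CPM (range 252 to 76923) in esg[ts]>ImdD30A and 25852 CPM in esg[ts]. The amylase *Amy-p* was at 11302 CPM in esg[ts]>ImdD30A and 8226 CPM in esg[ts]. The amidase *PGRP-SC2* was at 11714 CPM in esg[ts]>ImdD30A and 13620 CPM in esg[ts], and the homeodomain factor *hth* had a UMI in 21 of 30 and 12 of 15 barcodes. *CG32483* was found mainly in this kind in esg[ts]>ImdD30A, with a UMI in 27 of 30 barcodes led by *CG8560* and in 6 of 42 led by *CG6283*. Of the barcodes led by *CG8560*, 19 of 30 in esg[ts]>ImdD30A and 10 of 15 in esg[ts] also met the same limits for *Jon66Ci* and *Jon44E*, other Jonah proteases. Of those led by *CG6283*, 1 of 42 and 0 of 59 did.

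Barcodes led by *CG6283* differed between the libraries. At 2000 UMIs or more there were 42 in esg[ts]>ImdD30A (median depth 24540 UMIs) and 59 in esg[ts] (2820 UMIs), so their depths differed as well. *CG18180* had a median of 40.9 CPM and a highest value of 2385 CPM in esg[ts]>ImdD30A, against a median of 12625 CPM and a highest value of 70990 CPM in esg[ts]. *CG17633*, a zinc carboxypeptidase gene, was at 75.9 CPM in esg[ts]>ImdD30A and 7912 CPM in esg[ts]. *Jon99Cii* was at 386 CPM in esg[ts]>ImdD30A and 35461 CPM in esg[ts], and *PGRP-SC2* at 50.2 and 1797 CPM. Of the rule's own genes, *CG8560* had a median of 0 CPM in esg[ts]>ImdD30A and 1100 CPM in esg[ts], *CG3344* 154 and 1723 CPM, and *CG32483* 0 and 709 CPM. In the other direction, the trypsin *thetaTry* was at 12137 CPM in esg[ts]>ImdD30A and 2612 CPM in esg[ts], the Jonah-type protease *yip7* at 74523 and 17106 CPM, and the lipase gene *CG6277* at 5187 and 448 CPM. With alike barcodes counted as 1 cell (n = 29 and 26), several of these gaps were smaller. The medians were then 22314 CPM in esg[ts]>ImdD30A and 15125 CPM in esg[ts] for *yip7*, 69.3 and 1378 CPM for *CG18180*, 380 and 16671 CPM for *Jon99Cii*, 39.2 and 704 CPM for *PGRP-SC2*, 0 and 325 CPM for *CG8560*, 69.4 and 575 CPM for *CG3344*, and 0 in both for *CG32483*.

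The difference in *CG18180* was not seen among the deepest barcodes and stood at matched depth among the shallower ones. At 10000 UMIs or more, *CG18180* reached 5000 CPM in 0 of 27 esg[ts]>ImdD30A and 0 of 6 esg[ts] barcodes led by *CG6283*, with medians of 31.3 and 95.2 CPM. From 2000 to under 10000 UMIs it did so in 0 of 15 esg[ts]>ImdD30A barcodes (exact 95% interval 0 to 21.8%), at a median depth of 3028 UMIs. In esg[ts] 42 of 53 such barcodes did (79.2%, 65.9 to 89.2), at a median depth of 2631 UMIs. Under 2000 UMIs the numbers were 2 of 54 in esg[ts]>ImdD30A (3.70%, 0.452 to 12.7) and 201 of 275 in esg[ts] (73.1%, 67.4 to 78.2). With alike barcodes counted as 1 cell, the numbers from 2000 to under 10000 UMIs were 0 of 14 in esg[ts]>ImdD30A and 11 of 20 in esg[ts] (55.0%, 31.5 to 76.9). Other cells under 2000 UMIs held 1402 CPM of *CG18180* in esg[ts]>ImdD30A and 1522 CPM in esg[ts], both below that limit. Over all depths, members led by *CG6283* with *CG18180* at that level were 2 of the barcodes within the limits in esg[ts]>ImdD30A (0.0568%) and 243 in esg[ts] (7.02%). The limit of 5000 CPM was set after the values had been seen.

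The 201 shallow esg[ts] barcodes of this kind also varied little among themselves. Set against the summed profile of the rest, with the 6 genes left out, their median chi-square per gene was 1.62, where 1 is counting noise, at a median depth of 1164 UMIs. In esg[ts] it was 3.47 for the 74 barcodes led by *CG6283* with less *CG18180*, 3.74 for the 48 led by *CG8560*, 2.04 for shallow barcodes chosen by the trypsin *zetaTry* and *CG31266*, and 3.04 for a draw of 300 other cells. In esg[ts]>ImdD30A the values were 3.50 for 52 shallow barcodes led by *CG6283* and 3.50 for 61 led by *CG8560*. The limit on *CG18180* itself narrows the first group, and its part in the value was not tested.

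Within the 27 esg[ts]>ImdD30A barcodes of 10000 UMIs or more led by *CG6283*, 23 held *yip7* at 12665 CPM or more and 4 at 744 CPM or less. The 23 held *yip7* at a median of 129969 CPM, the trypsin *alphaTry* at 52295 CPM, *Fer2LCH*, the ferritin light chain, at 21373 CPM, and *CG10799* at 925 CPM. The 4 others held the neighbouring lipase gene *CG6277* at a median of 30377 CPM, *Fer2LCH* at 1610 CPM, and *MtnA*, a metallothionein, at 503 CPM, with *CG10799* in 2 of them. In esg[ts] the 6 barcodes of this depth fell into 3 and 3 by the same limit of 10000 CPM, and *MtnA* had medians of 26786 and 767 CPM in them. Summed over the group of 14 alike barcodes, the least deep of which had 5886 UMIs, *yip7* was at 130775 CPM and *MtnA* at 13536 CPM. With alike barcodes counted as 1 cell, the 27 became 15, and their medians were 59217 CPM of *yip7* and 8041 CPM of *Fer2LCH*. Apart from these, 4 esg[ts]>ImdD30A barcodes led by *CG3344* with 2000 UMIs or more were high in all 6 genes, with a median depth of 118402 UMIs and medians of 3535 CPM of *CG32483*, 2957 CPM of *CG10799*, 1106 CPM of *CG42700*, and 9309 CPM of *CG3344*.

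**Figure D3:**
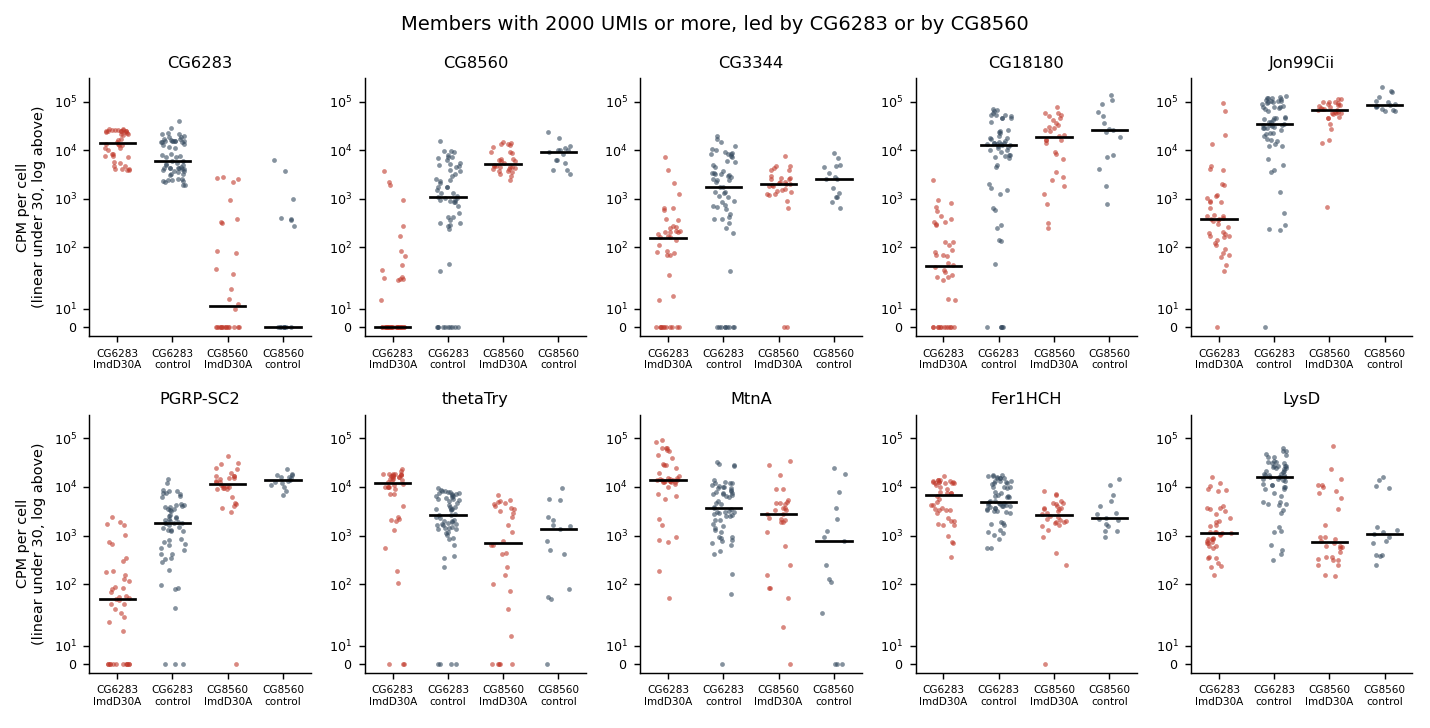
Level per barcode in CPM (y axis, linear under 30 and log above) of 10 genes in members with 2000 UMIs or more, led by CG6283 (42 in esg[ts]>ImdD30A, red, and 59 in esg[ts], blue) or by CG8560 (30 and 15). Each point is 1 barcode and each bar a median. For CG18180 the medians of barcodes led by CG6283 are 40.9 CPM in esg[ts]>ImdD30A and 12625 CPM in esg[ts], and those of barcodes led by CG8560 are 18310 and 25852 CPM.

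Members were then compared with the other cells of the same library that met the same gene, mitochondrial, progenitor, and *pros* limits. Of 5023 genes with at least 100 UMIs in each library, 76 (1.51%) were at least 2-fold higher in members in both libraries and 354 (7.05%) at least 2-fold lower. The median log2 ratio over all genes was −0.44 in esg[ts]>ImdD30A and −0.13 in esg[ts]. With these medians subtracted, 109 genes were higher and 264 lower, so the higher share of calls was 17.7% before and 29.2% after. As a mean over cells 54 genes were higher and 236 lower, of which 44 and 96 were among the first calls. With alike barcodes counted as 1 cell, 79 were higher and 378 lower, and among barcodes under 2000 UMIs alone 22 were higher and 32 lower. Lists below are described by counts of their genes past 2-fold in both libraries, to be read against these background shares.

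Metal handling genes were higher in members than in other cells. Of 14 genes of the list with at least 100 UMIs, 10 were at least 2-fold higher in members in both libraries and 0 lower. The median log2 ratio at that limit was 2.45 in esg[ts]>ImdD30A and 2.21 in esg[ts]. Over the 18 genes with at least 20 UMIs it was 2.31 and 2.06. The list summed to 37566 CPM in esg[ts]>ImdD30A members and 32157 CPM in esg[ts] members, against 6463 and 6425 CPM in other cells. *MtnA* was at 13103 CPM in esg[ts]>ImdD30A members and 9466 CPM in esg[ts] members, against 2195 and 2027 CPM in other cells. As a mean over cells *MtnA* was at 9159 CPM in esg[ts]>ImdD30A members and 6447 CPM in esg[ts] members, against 3190 and 4132 CPM in other cells, so its log2 ratios were 1.52 and 0.64, and among barcodes under 2000 UMIs they were 0.89 and 0.62. The call for *MtnA* thus ended in esg[ts] on the scale of cell means, and in both libraries among shallow barcodes. The other metallothioneins had log2 ratios of 4.08 (*MtnB*), 4.18 (*MtnC*), 2.95 (*MtnD*), and 2.40 (*MtnE*) in esg[ts]>ImdD30A. In esg[ts] their ratios were 3.12, 2.80, 3.45, and 3.17, with 50.1% of esg[ts] member UMIs of *MtnB* in 1 barcode. Thus all 5 metallothionein genes measured were higher in members from summed UMIs.

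Both ferritin chains were higher in members from summed UMIs. *Fer1HCH*, the heavy chain, was at 7294 CPM in esg[ts]>ImdD30A members and 6652 CPM in esg[ts] members, against 1575 and 1361 CPM in other cells. *Fer2LCH* was at 11599 CPM in esg[ts]>ImdD30A and 10346 CPM in esg[ts] members, against 2062 and 2253 CPM in other cells. Their genes overlap at their ends on chromosome 3R on opposite strands, *Fer1HCH* at 30385573 to 30388178 (minus) and *Fer2LCH* at 30387804 to 30390584 (plus). Among transporters, *Mvl*, an NRAMP-type metal importer, was at 223 CPM in esg[ts]>ImdD30A and 194.5 CPM in esg[ts] members, against 22.7 and 15.3 CPM in other cells. *ZnT63C*, a zinc exporter, had log2 ratios of 1.87 in esg[ts]>ImdD30A and 1.78 in esg[ts]. *Zip42C.2*, a zinc importer, was at 234 CPM in esg[ts]>ImdD30A and 43.5 CPM in esg[ts] members, against 3.97 and 11.5 CPM in other cells. Another importer of the same family, *Zip48C*, had log2 ratios of 0.26 in esg[ts]>ImdD30A and 1.29 in esg[ts]. The copper pump *ATP7* had −0.59 and 0.00, the metal-responsive factor *MTF-1* −0.69 and 0.25, and the copper importer *Ctr1B* −0.99 and −1.02, all short of the call. As a mean over cells the list's median, over genes with at least 20 UMIs, was 1.39 in esg[ts]>ImdD30A and 1.59 in esg[ts]. Among barcodes under 2000 UMIs it was 0.85 and 1.55. At that depth *Fer1HCH* had log2 ratios of 0.75 in esg[ts]>ImdD30A and 2.35 in esg[ts], *Fer2LCH* 0.81 and 2.52, *Mvl* 0.66 and 3.26, and *Zip42C.2* 0.31 and 0.61. Like *MtnA*, these thus fell short of 2-fold in shallow esg[ts]>ImdD30A barcodes. *MtnB*, *MtnC*, *MtnD*, *MtnE*, and *ZnT63C* stayed past 2-fold in both libraries.

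**Figure D4:**
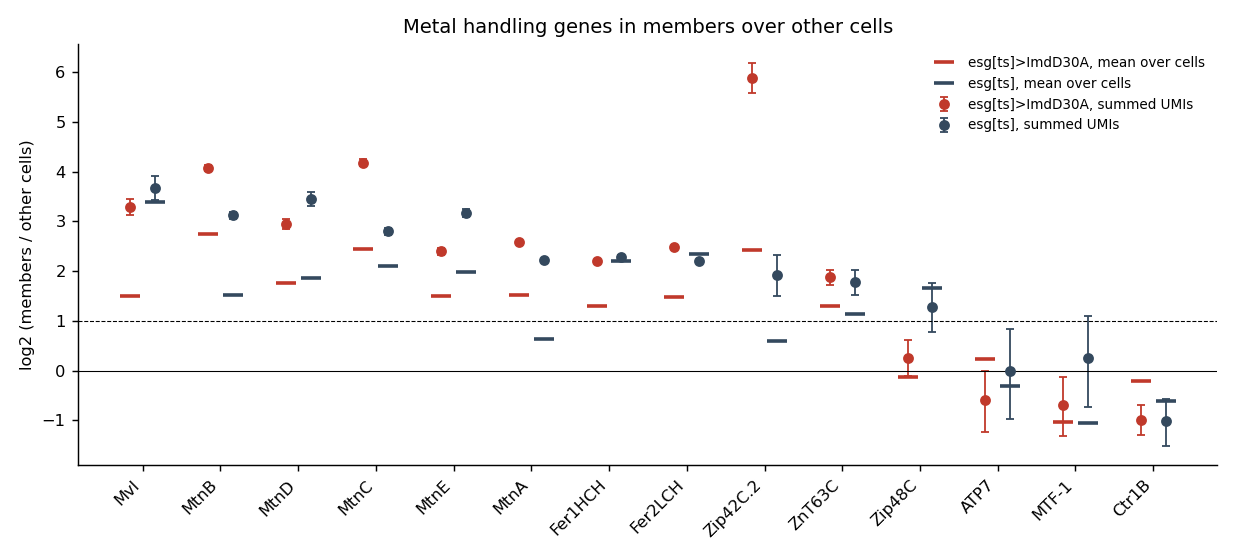
Log2 ratio of members over other cells (y axis) for the 14 metal handling genes with enough UMIs, esg[ts]>ImdD30A in red and esg[ts] in blue. Circles are ratios of summed UMIs with exact 95% intervals for counting error, bars are ratios of means over cells, and the dashed line is 2-fold. The circles of 10 genes are above the line in both libraries, and Zip42C.2 is at 5.88 in esg[ts]>ImdD30A and 1.92 in esg[ts].

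The metal handling genes were higher in barcodes led by *CG6283* than in those led by *CG8560*. At 2000 UMIs or more the metal handling list summed to a median of 56496 CPM in esg[ts]>ImdD30A and 20469 CPM in esg[ts] in barcodes led by *CG6283*, against 13118 and 8380 CPM in those led by *CG8560*. At 10000 UMIs or more it was 57044 CPM in esg[ts]>ImdD30A (n = 27) and 7528 CPM in esg[ts] (n = 6) in barcodes led by *CG6283*, against 12329 and 7340 CPM in those led by *CG8560*, so the few deep esg[ts] barcodes did not show this difference. *MtnB* had medians of 2362 CPM in esg[ts]>ImdD30A and 139 CPM in esg[ts] in these barcodes and 24.4 and 27.7 CPM in those led by *CG8560*. *Zip42C.2* had a UMI in 30 of 42 esg[ts]>ImdD30A and 5 of 59 esg[ts] barcodes led by *CG6283*, and in 0 of 30 and 0 of 15 led by *CG8560*. With alike barcodes counted as 1 cell, *MtnB* had medians of 1443 CPM (n = 29) in esg[ts]>ImdD30A and 610 CPM (n = 26) in esg[ts], and *MtnA* 16449 and 6253 CPM, in barcodes led by *CG6283*, at median depths of 13724 and 5469.5 UMIs.

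Digestive serine proteases took up more of the transcripts of members than of other cells, but not uniformly. The list summed to 279469 CPM in esg[ts]>ImdD30A members and 248544 CPM in esg[ts] members, against 82086 and 139427 CPM in other cells. Of 35 genes 12 were higher in both libraries and 14 lower. *CG18180* was at 8633 CPM in esg[ts]>ImdD30A members and 21555 CPM in esg[ts] members, against 431 and 628 CPM in other cells. *yip7* was at 62071 CPM in esg[ts]>ImdD30A and 28513 CPM in esg[ts] members, against 5597 and 9044 CPM in other cells. *CG10477*, a serine protease gene, had log2 ratios of 4.98 in esg[ts]>ImdD30A and 4.28 in esg[ts], and *Jon65Ai* 4.29 and 5.33. *Jon65Aii* had 3.69 in esg[ts]>ImdD30A and 3.63 in esg[ts], and *Jon99Fi* 2.67 and 3.21. Much of *Jon99Fi* lay in the 24 esg[ts]>ImdD30A and 18 esg[ts] members that also met the limits for *Jon66Ci* and *Jon44E*. In the remaining members *Jon99Fi* was at 113 CPM in esg[ts]>ImdD30A and 588 CPM in esg[ts]. The non-member cells that met those limits held 12127 and 12863 CPM. Serine proteases that were lower in members included *lambdaTry*, at 33.2 CPM in esg[ts]>ImdD30A and 213 CPM in esg[ts] members, against 644 and 521 CPM in other cells. *Jon25Bi* was at 114 CPM in esg[ts]>ImdD30A and 1011 CPM in esg[ts] members, against 1282 and 4524 CPM in other cells.

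Zinc carboxypeptidases divided in the same way, with 4 of 10 genes higher in both libraries and 5 lower. *CG8562* was at 1633 CPM in esg[ts]>ImdD30A members and 756 CPM in esg[ts] members, against 24.8 and 9.44 CPM in other cells. *CG17633* was at 7574 CPM in esg[ts]>ImdD30A and 11340 CPM in esg[ts] members, against 822 and 560 CPM in other cells. The secreted amidases *PGRP-SC1a*, *PGRP-SC1b*, and *PGRP-SC2* were higher in members from summed UMIs. *PGRP-SC1a* had log2 ratios of 3.36 in esg[ts]>ImdD30A and 2.99 in esg[ts], and *PGRP-SC1b* 2.58 and 2.77. Much of *PGRP-SC1a* lay in the 24 esg[ts]>ImdD30A and 18 esg[ts] members that also met the limits for *Jon66Ci* and *Jon44E*. Without them *PGRP-SC1a* was at 83.0 CPM in esg[ts]>ImdD30A and 199.5 CPM in esg[ts] members, and *PGRP-SC1b* at 33.4 and 71.3 CPM. The non-member cells that met those limits held 817 and 1058 CPM of *PGRP-SC1b*. Without the 1 member of each library that met such limits for *Ser8* and *Crys*, *PGRP-SC1a* was at 709 and 465 CPM. The other 4 PGRP genes measured did not pass 2-fold in both libraries. *PGRP-SC2* was at 6520 CPM in esg[ts]>ImdD30A members and 4821 CPM in esg[ts] members, against 813 and 648 CPM in other cells.

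Among genes outside these lists, *slo*, a calcium-activated potassium channel, was at 71.8 CPM in esg[ts]>ImdD30A members and 174 CPM in esg[ts] members, against 1.86 and 2.08 CPM in other cells. *hth* was at 240.5 CPM in esg[ts]>ImdD30A and 213 CPM in esg[ts] members, against 24.8 and 9.84 CPM in other cells, and was the only 1 of 14 regional transcription factors that passed 2-fold higher, with 4 lower. *CG15818*, a C-type lectin gene, had log2 ratios of 4.37 in esg[ts]>ImdD30A and 4.31 in esg[ts]. *CG42397* had 4.03 in esg[ts]>ImdD30A and 2.92 in esg[ts], and *CG31041* 3.14 and 2.79. Without the members that also met the limits for *Jon66Ci* and *Jon44E*, *CG31041* was at 16.5 CPM in esg[ts]>ImdD30A and 62.3 CPM in esg[ts] members. The non-member cells that met those limits held 1112 and 1310 CPM of it. *CG42807* had 4.22 and 3.83, with 67.0% and 65.9% of its member UMIs in 1 barcode of each library.

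Several digestive groups were lower in members. All 6 lysosomal alpha-mannosidases were lower in both libraries, with a median log2 ratio of −3.68 in esg[ts]>ImdD30A and −1.43 in esg[ts]. As means over cells the median was −1.13 in esg[ts]>ImdD30A and −0.66 in esg[ts]. Among barcodes with 10000 UMIs or more it was −5.16 and −3.03, and among those under 2000 UMIs −0.27 and −0.58, so the difference was larger in deep barcodes. Of 7 lysozymes 6 were lower, with medians of −3.95 in esg[ts]>ImdD30A and −2.63 in esg[ts], but −0.48 and −0.68 as means over cells. *LysD*, the lysozyme read most, was at 2468 CPM in esg[ts]>ImdD30A members and 13015 CPM in esg[ts] members, against 38257 and 80599 CPM in other cells. Its level in members moved with depth, at 558 CPM in esg[ts]>ImdD30A and 615 CPM in esg[ts] members with 10000 UMIs or more, and at 29357 and 32727 CPM in members under 2000 UMIs. The depth of a barcode and its free RNA cannot be told apart here. Of 12 amylase and maltase genes 2 were higher and 5 lower, of 9 sterol and lipid transfer genes 5 were lower, of 8 aminopeptidases 4 were lower, and of 11 enteroendocrine markers 7 were lower, with none higher in the last 3 lists.

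The genes with the lowest ratios in both libraries included *Inos*, inositol-phosphate synthase, at −3.54 in esg[ts]>ImdD30A and −3.36 in esg[ts], and the antifungal peptide *Drs*, at −4.66 and −3.34. *CG13947* had −3.35 and −5.39, *CG7589* −5.20 and −3.61, *CG45080* −6.24 and −3.53, and *CG31077* −5.16 and −3.28. *CG43673* and *CG43680* had −4.94 and −4.79 in esg[ts]>ImdD30A and −3.74 and −3.57 in esg[ts]. The non-coding RNA *CR45604* had −4.09 in esg[ts]>ImdD30A and −3.84 in esg[ts]. *CG15199* had 0 UMIs in esg[ts]>ImdD30A members and 7 in esg[ts] members. Housekeeping and signalling groups had few or no calls, which need 2-fold in both libraries. None of 84 cytosolic ribosomal protein genes, 68 nuclear respiratory chain genes, 7 smooth septate junction genes, 6 cathepsins, 10 heat shock genes, or 8 IMD signalling genes passed in either direction. Of 19 vacuolar ATPase subunit genes 1 was lower, and of 26 antioxidant and glutathione transferase genes 2 were lower, with 0 higher in both lists. *imd* itself was at 11.4 CPM in esg[ts]>ImdD30A members and 15.2 CPM in esg[ts] members, against 17.4 and 11.5 CPM in other cells.

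Between genotypes, 2217 genes had at least 100 UMIs over the members of both libraries. Of these 126 (5.68%) were at least 2-fold higher in esg[ts]>ImdD30A members and 169 (7.62%) at least 2-fold lower. With the median log2 ratio of all genes (−0.11) subtracted, 147 were higher and 129 lower, so the higher share of calls was 42.7% before and 53.3% after. As a mean over cells 213 were higher and 72 lower, and 70 and 26 of these were among the first calls. With alike barcodes counted as 1 cell, 118 were higher and 119 lower, of which 99 and 116 were among the first calls. Without barcodes found in both libraries, 103 were higher and 124 lower. The counts therefore moved with how deep barcodes were weighted.

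Of the 10 genes with the highest ratios, *CG34324*, *Muc68D*, *CG14645*, *CG34220*, and *CG3906* were also higher in the other cells of esg[ts]>ImdD30A. *CG14645* was at 1499 CPM in esg[ts]>ImdD30A members and 172 CPM in esg[ts] members, a log2 ratio of 3.13, against 5.82 in other cells. *CG34324* had 3.79 in members and 6.50 in other cells, the mucin gene *Muc68D* 3.39 and 5.86, *CG34220* 2.84 and 5.53, and *CG3906* 2.40 and 5.57. Mitochondrial transcripts were higher in members and in other cells of esg[ts]>ImdD30A. *mt:lrRNA* was at 4656 CPM in esg[ts]>ImdD30A members and 731 CPM in esg[ts] members, a log2 ratio of 2.67, against 3.12 in other cells, and *mt:ND4* had 2.56 in members and 2.66 in other cells. Of 13 mitochondrial genome transcripts measured, 11 were at least 2-fold higher in esg[ts]>ImdD30A members, with a median of 1.71 in members and 2.16 in other cells. *CG14125* had 7.33, with 87.3% of its UMIs in 1 esg[ts]>ImdD30A barcode. *CG13086* had 2.43 in members and 1.36 in other cells.

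Among these 10 genes *Zip42C.2* alone ran the other way outside members from summed UMIs, with a ratio of 2.43 in members and −1.53 in other cells. As a mean over members its ratio was 1.16. Among members with 10000 UMIs or more its ratio was 3.20, but under 2000 UMIs it was −0.70 (95% interval −2.46 to 0.75). A single barcode held 40.8% of its 720 UMIs in esg[ts]>ImdD30A members and 33.3% of its 63 UMIs in esg[ts] members. *CG8562* had 1.11 in members from summed UMIs and 2.31 from cell means. The other 9 genes were at least 2-fold higher in the other cells of esg[ts]>ImdD30A too.

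The 10 genes with the lowest ratios included 4 serine proteases and a mannosidase. *CG12057* was at 15.3 CPM in esg[ts]>ImdD30A members and 375 CPM in esg[ts] members, a log2 ratio of −4.62, against −2.07 in other cells. *Jon25Bi* had −3.14 in members and −1.82 in other cells, and *Jon25Bii* −2.62 and −1.77. The trypsin *iotaTry* had −3.20 in members and −0.14 in other cells, and *lambdaTry* −2.68 and 0.31. *LManV*, a lysosomal alpha-mannosidase, had −2.62 in members and 0.05 in other cells. *CG15533* had −3.10 and 0.32, *CG7968* −2.76 and 1.05, and *CG7916* −2.59 and 0.72. As means over cells these last 6 were between −1.04 and −0.35 in members. The antimicrobial peptide gene *Drsl3* had −3.84 in members and −1.17 in other cells, with 68.6% of its esg[ts] member UMIs in 1 barcode. *CG18180* had −1.32 from summed UMIs and −1.74 from cell means in members, and −0.54 in other cells. *CG15818* was at 126 CPM in esg[ts]>ImdD30A members and 357 CPM in esg[ts] members, and its ratio from cell means was −2.15.

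Depth bears on this comparison, since members with 10000 UMIs or more held 91.2% of UMIs in esg[ts]>ImdD30A and 53.9% in esg[ts]. Among those deep members alone the median log2 ratio over all genes was −0.03, and among members under 2000 UMIs 0.15. The leading genes moved with it, since at 10000 UMIs or more *CG6283* led 27 of 49 esg[ts]>ImdD30A members and 6 of 16 esg[ts] members. Their parts in the counts between genotypes were not tested beyond these splits.

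The members were last compared with the 3 enterocyte sets of the 4 examined whose summed profiles were most like theirs, each chosen by the same limits on other genes and freed of barcodes in both sets. The Spearman correlation over genes, a description within each library, ran over 951 to 3291 genes and so not over the same genes in each set, and the values in esg[ts]>ImdD30A differ little. It was 0.666 in esg[ts]>ImdD30A and 0.761 in esg[ts] for cells chosen by *Jon66Ci* and *Jon44E* (134 and 54 cells). It was 0.665 and 0.735 for cells chosen by the protease *Ser8* and *Crys* (138 and 41 cells). These were far deeper than most members, at medians of 11097.5 UMIs in esg[ts]>ImdD30A and 12312 UMIs in esg[ts]. For cells chosen by the mannosidases *LManIII* to *LManVI* (277 and 258 cells) it was 0.662 and 0.702, and for *zetaTry* and *CG31266* it was 0.660 and 0.678.

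Against *Jon66Ci* cells, 88 of 938 genes (9.38%) were at least 2-fold higher in members in both libraries and 52 (5.54%) lower. Metal handling genes were higher in members, with log2 ratios of 4.59 in esg[ts]>ImdD30A and 4.04 in esg[ts] for *MtnA*, 6.49 and 6.11 for *MtnB*, 2.73 and 2.94 for *Fer1HCH*, and 3.57 and 3.37 for *Fer2LCH*. *thetaTry* had 7.32 in esg[ts]>ImdD30A and 5.01 in esg[ts], and *CG6277* 6.02 and 5.95. Lower in members were *Ser8* at −6.75 in esg[ts]>ImdD30A and −5.38 in esg[ts], *Jon25Biii* at −5.62 and −4.14, *Jon99Fi* at −6.75 and −4.45, *CG17571* at −6.95 and −4.33, and *PGRP-SC2* at −1.65 and −1.80. *Jon99Cii* had −1.45 in esg[ts]>ImdD30A and −0.60 in esg[ts], and *hth* −0.38 and 1.08, so these did not pass in both. The 24 esg[ts]>ImdD30A and 18 esg[ts] barcodes in both sets were left out of both, which lowers in the remaining members what those barcodes held. *PGRP-SC2* was at 2317 CPM in esg[ts]>ImdD30A and 2939 CPM in esg[ts] members without them, but at 6520 and 4821 CPM in all members, and the *Jon66Ci* cells had 7295 and 10257 CPM. Ratios with the shared barcodes kept were not computed.

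Against *Ser8* cells, 109 of 1276 genes (8.54%) were higher in members and 115 (9.01%) lower. *MtnA* had log2 ratios of 4.85 in esg[ts]>ImdD30A and 5.21 in esg[ts], *thetaTry* 8.77 and 6.93, and *CG18180* 4.97 and 5.37. Lower in members were *CG12057* at −7.91 in esg[ts]>ImdD30A and −6.31 in esg[ts], *CG7953* at −7.16 and −5.12, *CG8997* at −7.21 and −5.02, and the sterol-binding gene *Npc2d* at −6.91 and −3.60. *PGRP-SC2* was within 2-fold of these cells, at 0.77 in esg[ts]>ImdD30A and 0.47 in esg[ts].

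Against *LMan* cells, 98 of 2204 genes (4.45%) were higher in members and 469 (21.3%) lower. *slo* had log2 ratios of 8.04 in esg[ts]>ImdD30A and 8.53 in esg[ts], *CG10477* 8.24 and 7.40, *hth* 7.79 and 5.24, *CG17633* 6.53 and 5.51, and *PGRP-SC2* 4.89 and 4.32. The ferritin genes were closest here, with *Fer1HCH* at 1.40 in esg[ts]>ImdD30A and 1.87 in esg[ts]. *LManI* was lower in members at −7.10 and −5.01, *LManII* at −7.95 and −4.41, and *CG15534* at −7.70 and −4.58. Across these 3 sets *MtnA*, *MtnB*, *Fer1HCH*, and *Fer2LCH* were at least 2-fold higher in members in both libraries from summed UMIs. As means over cells the ferritin genes fell under 2-fold in esg[ts]>ImdD30A against *LMan* cells, at 0.66 for *Fer1HCH* and 0.74 for *Fer2LCH*. *Fer1HCH* also did so against *Ser8* cells, at 0.90. In the remaining set *MtnA* was not 2-fold higher from summed UMIs either. Against *zetaTry* cells, where 90 of 2081 genes (4.32%) were higher in members and 547 (26.3%) lower, *MtnA* was at 13123 CPM in esg[ts]>ImdD30A members and 9660 CPM in esg[ts] members, against 8293 and 9552 CPM in the *zetaTry* cells. Its log2 ratios there were 0.66 and 0.02 from summed UMIs and 0.27 and −0.52 from cell means.

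**Figure D5:**
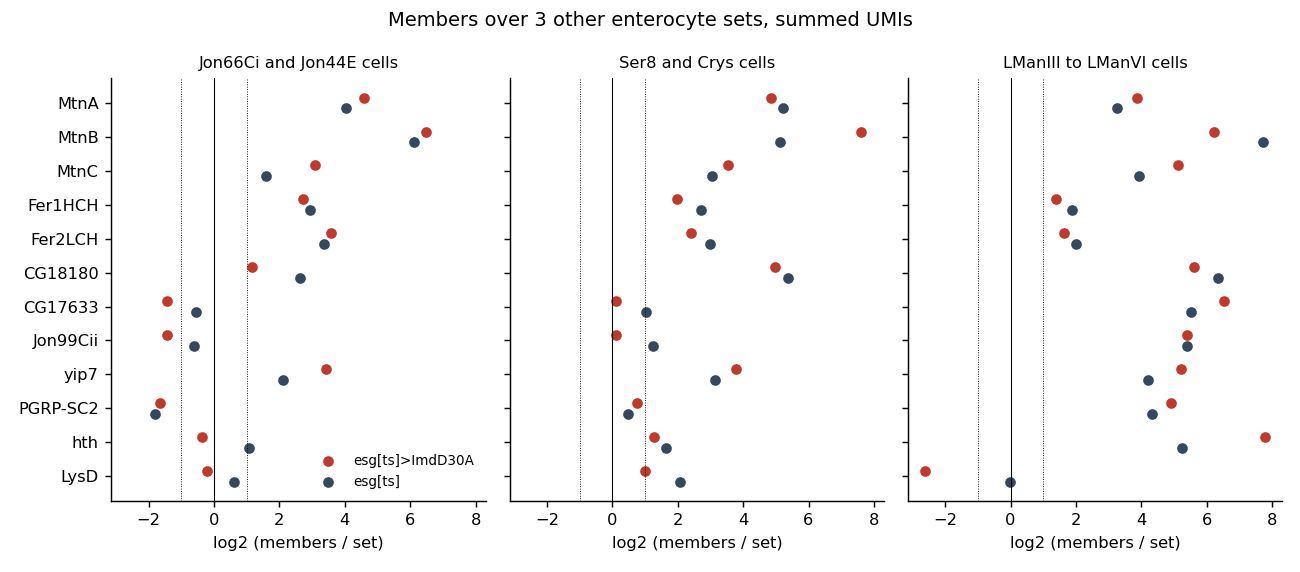
Log2 ratio of members over each of 3 other enterocyte sets (x axis) for 12 genes (y axis), from summed UMIs, esg[ts]>ImdD30A in red and esg[ts] in blue. Dotted lines mark 2-fold in each direction. Ratios of means over cells are not plotted, and some of those of the ferritin genes were under 2-fold in esg[ts]>ImdD30A. MtnA, MtnB, Fer1HCH, and Fer2LCH lie right of the upper line in the 3 panels, but MtnA was within 2-fold of the zetaTry cells, which are not plotted. Members also in the Jon66Ci set are left out of the Jon66Ci panel, so the ratios there are of the remaining members.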

How the data were processed

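The study's authors made 10x Chromium 3′ libraries from elastase-dissociated guts, and the deposited matrices hold raw UMI counts per gene and barcode, made by the authors with Cell Ranger (3.0 in the submitters' processing notes, which also name Seurat 3.1.1). The build behind the counts is not given in the sources used here, and positions were taken from BDGP6.54 by FlyBase identifier for 173 of 174 named genes. Barcodes held 53275921 UMIs in esg[ts]>ImdD30A and 30383272 in esg[ts]. The limits on cells are those given with the results. No doublet caller was run, and an alternative kept barcodes with at most 3500 genes. Counts were summed over members per library, divided by their UMIs, and given as CPM with exact Poisson intervals. Ratios have the exact interval for 2 counts and shares the exact Clopper-Pearson interval, at 95%. These intervals leave out any spread between cells. In a ratio, 3 counts stood in for 0. A gene was called at 2-fold with at least 100 UMIs, and list medians used genes with at least 20. No test was run, as each genotype had 1 library. Neighbours came from 30 principal components of 2000 variable genes.

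Genes were named by rule: the 6 genes, the 20 highest and 10 lowest ratios of members over other cells in the library where the gene was nearer 0, the 10 highest and 10 lowest ratios between genotypes among genes with at least 200 UMIs, up to 4 genes of each list by level, *imd*, and markers of other cell types. *CG18180*, *yip7*, *CG6277*, *CG10477*, *Zip42C.2*, and other genes compared by leading gene, depth, or set were singled out after their values were seen. The members and lists were chosen with earlier results of these data known. The splits by leading gene and depth and the comparison of barcodes by chi-square were added after seeing the data. The ratio and chi-square computations were tested on simulated data. Python 3.11.15, numpy 2.4.6, pandas 2.3.3, scipy 1.17.1, and matplotlib 3.10.9 were used. Bulk RNA sequencing and imaging of the study were not analysed here.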

Additional observations from a re-analysis of the deposited data

How the results depend on the processing

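No paired analysis was possible because each genotype was 1 library and the labels give no replicate numbers. The share of members (esg[ts]>ImdD30A minus esg[ts]) was −7.20 percentage points, lay between −8.18 and −5.94 points with other limits on the 6 genes, and was −6.33 with each cell thinned to 500 UMIs. It was −3.78 points (6.10% against 9.89%) when barcodes needed 500 genes and no more than 10% of UMIs from the mitochondrial genome. Genes lower in members than in other cells numbered 354 of 5023, but 172 of 2273 (7.57%) at a minimum of 500 UMIs, 205 of 4464 with at most 3500 genes per barcode, 731 of 4980 for members at 10 times the pooled share or more, and 736 of 4943 for members led by *CG8560*. Among barcodes under 2000 UMIs 22 of 1670 genes were higher in members and 32 lower. Between genotypes in members, 213 genes were higher and 72 lower as means over cells, 405 and 429 of 5036 at a minimum of 20 UMIs, 36 and 58 of 655 at 500 UMIs, 47 and 21 of 537 under 2000 UMIs, and 78 and 19 of 814 for members led by *CG8560*, with 101 of 1788 lower at 10000 UMIs or more. As means over cells, the called genotype ratio turned positive for *AstC* (0.46), *Drsl2* (2.75), *E(spl)malpha-BFM* (0.32), *LManIII* (0.066), *LManVI* (0.058), *LysC* (0.38), and *Orcokinin* (0.80), and 44 of 145 named genes changed sign. The causes were not tested. Of 96 other values for the main comparisons, 78 stayed within 1.5 times of the count or within the error. Depth limits what the members under 2000 UMIs can show.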
